A study of Mus musculus with 57 samples.

Results

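The genes described here are the heat shock and chaperonin genes of single cells sorted from bone of mice given mouse prostate cancer cells. They are 62 of the 12885 genes in the deposited table of all cells. They were taken by symbol: those beginning with Hspa, Hspb, Hspd, Hspe, Hsph, Hsp90a, Dnaja, Dnajb or Dnajc, and the 8 subunits of the cytosolic chaperonin (Tcp1, Cct2, Cct3, Cct4, Cct5, Cct6a, Cct7 and Cct8), without the endoplasmic reticulum chaperones Hspa5, Dnajb9, Dnajb11 and Dnajc3. The set holds 10 genes of the Hsp70 and Hsp110 family, 2 of Hsp90, 8 of the chaperonin (CCT), 3 under Hspd and Hspe symbols, 6 under Hspb symbols, 4 Dnaja, 6 Dnajb and 23 Dnajc genes. The injected cells were RM1, a mouse prostate cancer line expressing a cerulean fluorescent protein (eCFP) and a luciferase (luc2). C57BL/6 mice received them by intracardiac injection after the cells were stained with the lipophilic dye PKH26. Dormant cells, 28 from 6 mice, were sorted from marrow with the dye still on them, and proliferating cells, 29 from 6 mice, without it. All mice received the same labelled and dyed line, endpoints lay between day 13 and day 26, and 4 of the 8 mice gave cells of both states. Each library batch held cells of a single state, per the labels, which means that batch and state cannot be told apart.

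Heat shock proteins bind unfolded protein. Hsp70 proteins take up exposed chains with the help of J-domain partners (the Dnaj genes) and exchange factors such as Hsp110, Hsp90 finishes the folding of kinases and receptors, and the ring-shaped chaperonin encloses actin, tubulin and other large proteins. Small heat shock proteins hold unfolded protein without ATP, and several of these genes are switched on by the transcription factor Hsf1, which binds repeated short units called heat shock elements. Not every symbol in the set is cytosolic: Hspa9, Hspd1, Hspe1, Dnaja3, Dnajc11, Dnajc15, Dnajc19 and Dnajc30 encode mitochondrial proteins, Hspa13 and Dnajc10 proteins of the secretory pathway, and Hspd1-ps3 is annotated as a processed pseudogene. Hspbp1 (an Hsp70 exchange factor), Hspb11 (a part of the ciliary transport machinery) and Hspbap1 share only their first letters with the small heat shock proteins.

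Matches to heat shock elements near the starts of these genes are shown because these units are the binding sequence of Hsf1. RefSeq promoter windows (250 bases before to 50 after the start, GRCm38.p6) were matched for 48 of the 62 genes. A run of 3 alternating units, GAANNTTCNNGAA or TTCNNGAANNTTC on either strand, was found in at least 1 window of 4 of these 48 genes (8.33%), namely Hspd1, Hspe1, Hsph1 and Dnajb6, against 0.497% of the 9452 genes of the table that have a window. Hspd1 and Hspe1 are neighbours read in opposite directions, and their match is the same stretch of DNA. The shorter run of 2 units, GAANNTTC or TTCNNGAA, which every 3-unit match also holds, was found in 17 of 48 (35.4%), against 13.9% of genes in the table. Each line below gives 30 bases, 5′ to 3′ on the gene's strand, with the run of units in capitals. The lines for Hspa1a and Hspa1b, near-identical copies, hold 2 units. Neither run was found in the windows of Dnajb1, another inducible gene.
Hspe1: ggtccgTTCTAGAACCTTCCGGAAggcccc
Hsph1: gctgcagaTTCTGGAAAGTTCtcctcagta
Dnajb6: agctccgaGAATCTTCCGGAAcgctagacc
Hspa1a: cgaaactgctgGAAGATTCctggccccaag
Hspa1b: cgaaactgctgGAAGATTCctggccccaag

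The Hspe1 line lies at chr1:55088053-55088082 on the plus strand, where the capitals run from 89 to 72 bases before the RefSeq start of Hspe1 and fall in an annotated untranslated exon of Hspd1. This run of 18 bases is made of 2 overlapping matches. The Hsph1 line lies at chr5:149636279-149636308 on the minus strand, with capitals at bases 16 to 28 after the start, in an untranslated exon. The Dnajb6 line lies at chr5:29735844-29735873 on the plus strand, with capitals 46 to 34 bases before the start used and in an annotated untranslated exon of Dnajb6. The lines for Hspa1a (chr17:34972242-34972271) and Hspa1b (chr17:34959324-34959353) are on the minus strand, with capitals from 104 to 97 bases before each start, outside the exons of these genes. The letters show only that the units are present in these windows.

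Libraries differed in label and in depth. Of the 28 dormant cells, 6 had under 100 normalised reads of eCFP (0 to 87.6), while the lowest of the other 22 had 349 and the lowest proliferating cell 327. Normalised reads of luc2 were 2.28 to 230 in these 6 cells, at least 1850 in the other 22 and at least 1994 in proliferating cells. These 6 low-label cells came from mice 244, 360, 369 and 1184, with mouse 244 sampled on day 26. They had 2672 to 7976 genes above 0, against 2982 to 9878 in labelled dormant cells and 2397 to 10507 in proliferating cells. Recovered reads per cell ran from 943496 to 5273065 over all cells. Of 3 measured epithelial marker genes, the summed level was 0 to 12.5 normalised reads in low-label cells, with Krt19 at 0 in all 6, and 1372 to 22461 in labelled dormant cells. The 18 pan-leukocyte genes, all measured, summed to 45770.2 to 144785 in low-label cells, against 935 to 19969 in labelled dormant and 764 to 10059 in proliferating cells. The 12 monocyte and macrophage genes summed to 79775 to 307692 in low-label cells, against 0 to 128968 in labelled dormant and 0 to 1562 in proliferating cells, and 8 measured neutrophil genes summed to at most 790824 in low-label, 8871 in labelled dormant and 30631 in proliferating cells. Cells with at least 5 of the 18 pan-leukocyte genes above 0 are called leukocyte-rich: 6 of 6 low-label, 11 of 22 labelled dormant and 13 of 29 proliferating cells. Whether the low-label cells were RM1 cells was not tested.

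Between the states, no chaperone gene passed the test. Over all mice 61 of the 62 genes were above 0 in at least 6 cells and were tested, and 50 of them had lower means in dormant cells. The median difference was −0.87 over these 61 genes, on the scale of log2(normalised reads + 1) averaged within each mouse, beside −0.35 over all 11841 genes tested. In limma none had a Benjamini-Hochberg adjusted p under 0.05 (smallest 0.437), and none of all genes passed (0%). At an unadjusted p under 0.05, 9 of the 61 were lower and 0 higher, beside 6.22% of all genes lower. edgeR and DESeq2 on recovered reads called 0 of these genes too, and 0.152% and 2.75% of all genes. Without the 6 low-label cells the median was −0.15 (all genes 0.09) and no chaperone gene had an unadjusted p under 0.05 (0.509% of all genes were lower at that level), with 36 of 61 lower. With cells rescaled by a median-of-ratios factor, the median was −0.55 over these genes and −0.16 over all genes, with 46 of 61 lower. Without leukocyte-rich cells the median was 1.03 (all genes 0.92), with 3 mice left on the dormant side.

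**Figure D1:**
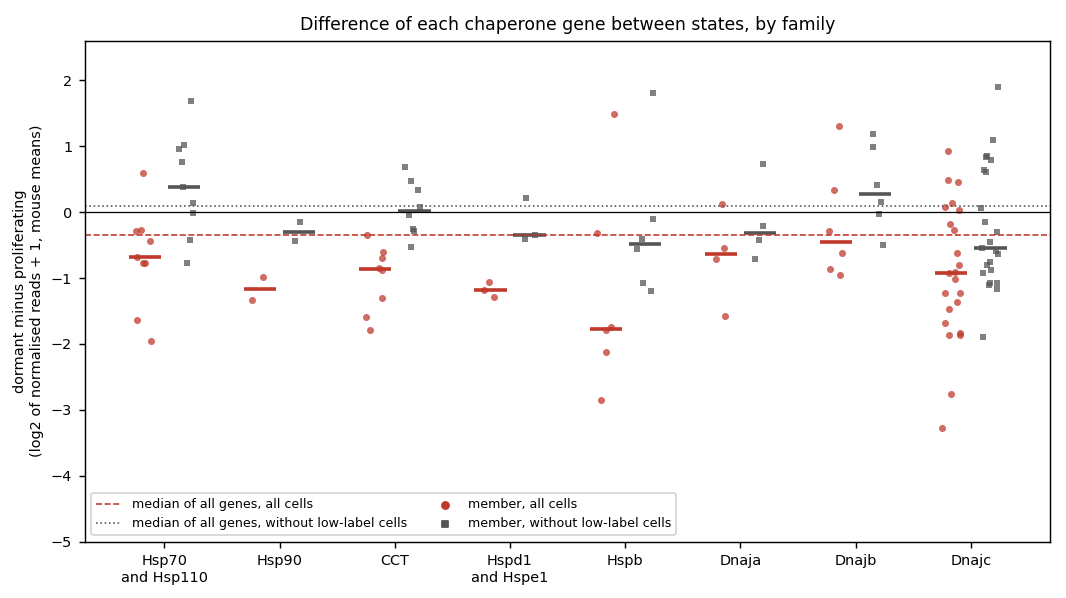
Difference between dormant and proliferating mouse means for each of the 61 tested genes (points), by family, in log2(normalised reads + 1). Red circles use all cells and grey squares leave out the 6 low-label cells; short lines are family medians, which for CCT were −0.87 and 0.02, and the dashed and dotted lines are the medians of all genes.

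In the 4 mice with both states, fitted with the mouse as a block, 59 of 61 genes were lower in dormant cells, with a median of −1.21 beside −0.72 over 11563 genes. No gene passed in limma (0% of all genes; smallest adjusted p among the chaperones 0.538), and 17 were lower at an unadjusted p under 0.05, beside 8.15% of all genes. Counts differed by mouse: 54 of 61 genes were lower in dormant cells of mouse 360, 52 in mouse 369, 46 in mouse 452 and 27 in mouse 1185. The share over all genes was not counted for each mouse. Whether these counts are particular to the chaperone genes therefore cannot be told. Low-label cells were 2 of 2 dormant cells in mouse 360, 2 of 6 in mouse 369, 0 of 3 in mouse 452 and 0 of 11 in mouse 1185. Their part in these counts was not tested. Leaving out the low-label cells, with 3 mice keeping both states, gave a median of −0.36 (all genes −0.12) and 4 of 60 genes lower at an unadjusted p under 0.05, beside 2.09% of all genes.

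Among the Hsp70 and Hsp110 genes, Hspa8, the constitutive cytosolic Hsp70, was above 0 in all 57 cells. It had 28.2, 9183 and 20791 normalised reads (lowest, median, highest) in dormant cells, against 6000.1, 14155 and 26003 in proliferating cells. The ranges overlapped, and the lowest dormant cell was a low-label cell. Over mice the difference was −0.78 ± 0.34 (± SE here and for all differences; 95% interval −1.48 to −0.08; limma adjusted p 0.478), and −0.42 without low-label cells (−1.13 to 0.29). Hspa9, the mitochondrial Hsp70, had a median of 4085 normalised reads in dormant cells, against 4750.4 in proliferating cells, and a difference of −0.29 ± 0.81. Hspa4, an Hsp110 exchange factor, had medians of 1261 normalised reads in dormant and 1979 in proliferating cells and a difference of −0.68 ± 0.99. Its relative Hspa4l, also an exchange factor and among the 4 genes with the largest positive differences, had 0.60 ± 1.37 over all mice but −1.94 within the mice with both states. Hsph1 had −1.63 ± 1.60 and Hspa1b −0.78 ± 1.26 over all mice, and 1.02 and 0.96 without low-label cells. Within the mice with both states they had −3.29 and −1.30, and stayed negative at −0.90 and −0.16 without low-label cells. Hspa9, Hspa4 and Hspa4l had 0.75, 0.14 and 1.69 over all mice without low-label cells. Of the 9 tested genes of this family 8 had negative differences over all mice with all cells and 3 without low-label cells.

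Both cytosolic Hsp90 genes were above 0 in every cell. Hsp90ab1, the constitutive form, had 18.6, 4372 and 14031 normalised reads (lowest, median, highest) in dormant cells, against 3428, 9800.5 and 16769 in proliferating cells. The ranges overlapped above 3428. Its difference of −1.34 ± 0.45 over mice had the second smallest p of the set (limma unadjusted p 0.00671, adjusted p 0.437), and it was −0.45 without low-label cells (−1.29 to 0.40). Hsp90aa1, the inducible form, had medians of 3668 normalised reads in dormant cells, against 7474 in proliferating cells, and a difference of −0.98 ± 0.49, or −0.15 without low-label cells.

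The 8 chaperonin subunits, which assemble into one double ring, all had negative differences over all mice, between −1.79 and −0.34, with a median of −0.87. Tcp1 (CCT1) had the smallest p of the whole set. It had 5.32, 2593 and 5881 normalised reads in dormant cells, against 1974, 4537 and 9299 in proliferating cells (lowest, median, highest). The ranges overlapped between 1974 and 5881. Its difference was −1.59 ± 0.51 (95% interval −2.64 to −0.54; limma unadjusted p 0.00461, adjusted p 0.437) and −0.52 without low-label cells (−1.38 to 0.33). Cct5 (−1.31 ± 0.48) and Cct6a (−1.79 ± 0.69) also had unadjusted p under 0.05, at limma adjusted p of 0.443 and 0.449. Cct2, Cct3, Cct4, Cct7 and Cct8 had differences of −0.89, −0.34, −0.85, −0.61 and −0.70. Without low-label cells 4 subunits were lower and 4 higher, from −0.52 to 0.68, and with median-of-ratios rescaling 7 of 8 were negative.

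**Figure D2:**
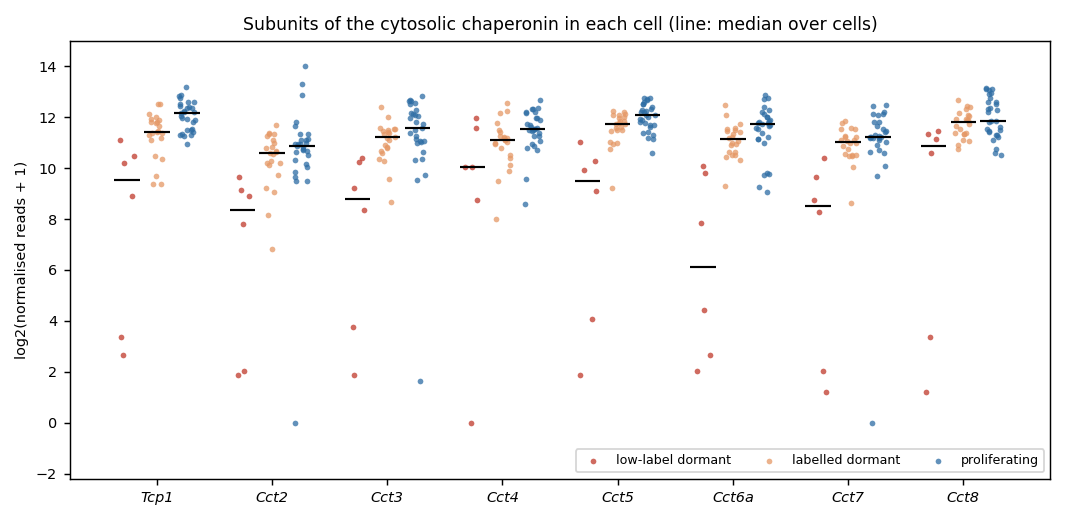
Level of each chaperonin subunit in each cell, as log2(normalised reads + 1), in 6 low-label dormant, 22 labelled dormant and 29 proliferating cells; the line is the median over cells. Labelled dormant and proliferating cells overlap for every subunit. For Cct6a the low-label median of 123 normalised reads lies below every labelled dormant and proliferating cell (lowest 533).

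The mitochondrial chaperonin pair did not pass the test either. Hspd1, the ring subunit, had 12.5, 2457 and 6048 normalised reads in dormant cells, against 751, 4015 and 9325 in proliferating cells (lowest, median, highest), with a difference of −1.18 ± 0.51. Hspe1, its lid, which shares the promoter stretch printed above with Hspd1, had a median of 969 normalised reads in dormant cells, against 2019 in proliferating cells, and a difference of −1.05 ± 0.68. Without low-label cells the difference was −0.34 for Hspd1 and 0.21 for Hspe1. Hspd1-ps3 had a median of 19.6 normalised reads in dormant cells, against 32.3 in proliferating cells, and a difference of −1.29 ± 1.06. Of its 50-base windows 60.7% are also in Hspd1 transcripts, so reads at the pseudogene cannot be assigned with certainty.

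Of the 6 genes under Hspb symbols, Hspb8, a small heat shock protein that works with Bag3 in selective autophagy, had the largest negative difference, −2.85 ± 1.35 (limma adjusted p 0.515), and −0.11 without low-label cells. Hspb6 had −2.13 ± 1.19, Hspb1 −1.75 ± 1.06 and Hspb11 −1.79 ± 1.24. Hspbp1 had 1.49 ± 1.22 over all mice and −0.06 ± 1.00 within the 4 mice with both states. The Dnaja genes, the main J-domain partners of Hsp70, had differences of 0.12 for Dnaja1, −0.72 for Dnaja2, −1.57 for the mitochondrial Dnaja3 and −0.55 for Dnaja4, which was above 0 in 9 cells. Dnajb6, a suppressor of protein aggregation, was above 0 in all cells, with a median of 793 normalised reads in dormant cells, against 1004 in proliferating cells. Its 6 dormant mouse means (8.79 to 9.54) all lay below its 6 proliferating means (9.80 to 10.29), with a difference of −0.87 ± 0.52 (limma adjusted p 0.633). The means overlapped without low-label cells, where labelled dormant means reached 9.84 and the difference was −0.49. Dnajc17, a spliceosome-associated J protein, was the only other tested gene of the set whose mouse means did not overlap, which makes 2 of 61, both lower, beside 0.363% of all genes. Its dormant mouse means were 0 to 2.22 and all lay below its proliferating ones (lowest 2.44), and 0 of 6 low-label, 11 of 22 labelled dormant and 18 of 29 proliferating cells had it above 0. Without low-label cells the highest dormant mean of Dnajc17 was 3.32, and 0 of 61 genes had mouse means that did not overlap, beside 0.181% of all genes lower in that way.

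Dnajb1, the inducible partner of Hsp70, had a difference of −0.29 ± 1.21, Dnajb12 (an endoplasmic reticulum membrane protein) −0.95 ± 1.28, Dnajb4 −0.62 ± 1.32 and Dnajb14 1.31 ± 1.24. Without low-label cells these differences were 1.19, 0.16, 0.41 and 0.98. Within the 4 mice with both states the sign turned for Dnajb4 (0.49), Dnajb14 (−1.03), Dnaja1 (−0.74) and Dnajc19 (−0.62). Among the 23 Dnajc genes 17 were lower and 6 higher, and 2 were lower at an unadjusted p under 0.05: Dnajc21, a ribosome biogenesis factor (−3.28 ± 1.35), and Dnajc17 (−2.77 ± 1.02). Dnajc8, a spliceosome component, had −1.22 ± 0.73, Dnajc10 −1.02 ± 1.09, Dnajc15 −0.92 ± 0.69, Dnajc19 0.49 ± 0.89 and Dnajc30 0.93 ± 1.23. None of these passed the adjusted test in limma.

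Within dormant cells, 4 chaperone genes were lower in low-label than in labelled cells past the test, a share near that of all genes. These 2 kinds of cell are not the study's own groups, and the eCFP threshold was taken from an earlier look at these data. Means over low-label cells of 4 mice were set against means over labelled cells of 4 mice, with 57 of the genes tested. Of these, 54 were lower and 3 higher in low-label cells, with a median of −2.61 beside −1.71 over all 10701 genes. In limma 4 fell with an adjusted p under 0.05, or 7.02% of the 57, beside 9.08% of all genes, so the share called was near the background. At an unadjusted p under 0.05, 22 were lower (38.6%) beside 29.5% of all genes, and 0 were higher. Every low-label mouse mean lay below every labelled one for 14 of 57 (24.6%), beside 17.7% of all genes. Among these, Hspb6, Dnajc16 and Dnajc17 were at 0 in every low-label cell and entered the test through labelled cells only.

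Hsph1, the Hsp110 exchange factor, had 0, 1.24 and 43.0 normalised reads (lowest, median, highest) in low-label cells, against 0, 381 and 1021 in labelled dormant cells and 0, 597 and 2081 in proliferating cells. The groups of cells overlapped at the low end, since 2 of 22 labelled cells were at 0. The mouse means were 0, 1.22, 1.58 and 2.73 in low-label cells, against 5.77, 6.91, 8.39 and 8.74 in labelled dormant cells, with no overlap. The difference was −6.07 ± 1.49 (95% interval −9.24 to −2.90; limma adjusted p 0.0310). The gene lies at chr5:149614287-149636376 on the minus strand of GRCm38.

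Hspb8 (chr5:116408491-116422864, minus strand) had 0, 0 and 3.13 normalised reads in low-label cells, against 0, 230.0 and 751 in labelled dormant and 0, 231 and 861 in proliferating cells. It was above 0 in 2 of 6 low-label cells (33.3%, exact 95% interval 4.33 to 77.7) and in 21 of 22 labelled cells (95.5%, 77.2 to 99.9). The difference over mice was −6.10 ± 1.45 (limma adjusted p 0.0301). Dnajc21 (chr15:10446756-10470516, minus strand) had at most 1.33 normalised reads in low-label cells, with a median of 0, against a median of 151 and a highest value of 465 in labelled dormant cells. Its difference was −6.04 ± 1.35 (limma adjusted p 0.0279), and 20 of 22 labelled cells were above 0, against 2 of 6 low-label cells. Hspb8 and Dnajc21 therefore met the filter of 6 cells only with labelled cells counted. The same holds for Hsph1, which was above 0 in 4 of 6 low-label cells.

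Cct6a (chr5:129786998-129846371, plus strand) was above 0 in all cells, with 3.13, 123 and 1095 normalised reads in low-label cells, against 627, 2246 and 5699 in labelled dormant and 533, 3421 and 7480.1 in proliferating cells. Low-label and labelled dormant cells overlapped between 627 and 1095 normalised reads. The difference was −5.11 ± 1.36 (95% interval −8.00 to −2.22; limma adjusted p 0.0351). The other subunits were also lower in low-label cells, between −4.40 and −1.77, without passing, and 7 of the 8 had an unadjusted p under 0.05. With median-of-ratios rescaling these differences remained negative for all 8 subunits.

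**Figure D3:**
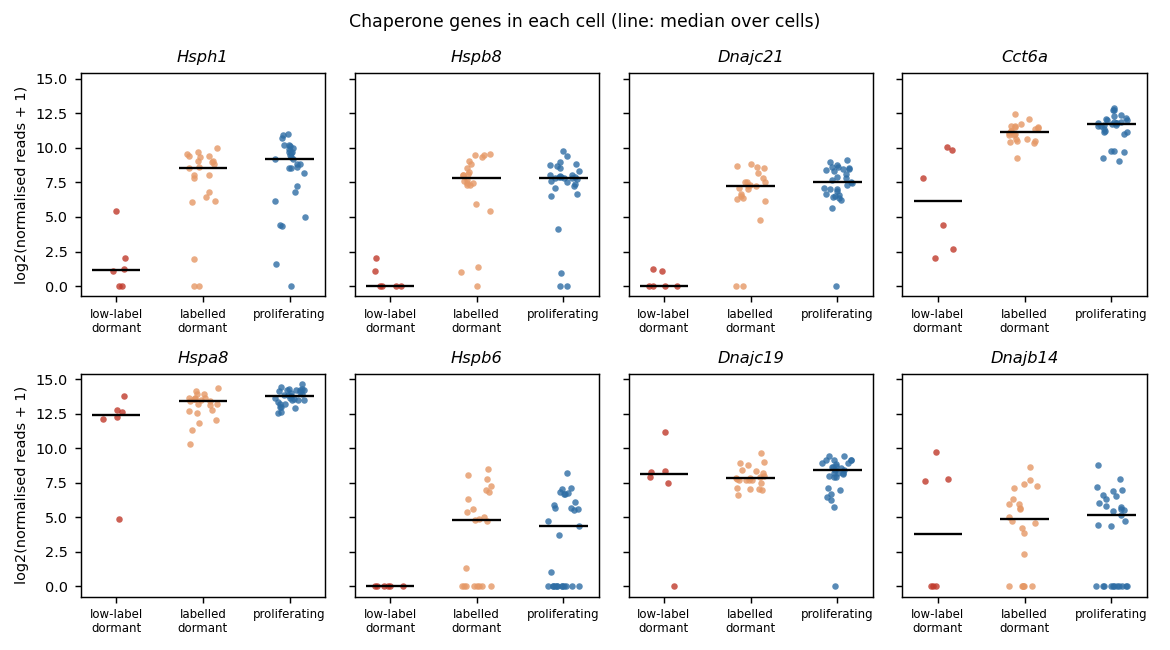
Levels of 8 chaperone genes in each cell, as log2(normalised reads + 1), in low-label dormant, labelled dormant and proliferating cells; the line is the median over cells. The upper row holds the 4 genes past the test between low-label and labelled dormant cells, and the lower row 4 that were not, of which Hspb6 was at 0 in all 6 low-label cells.

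The chaperonin level differed widely among the low-label cells. Summed over the 8 subunits, low-label cells had 56.4 to 12189.5 normalised reads (median 6584), against 9611 to 35855 (median 19711) in labelled dormant cells and 8751 to 56642 (median 28180.5) in proliferating cells. Cell 25 of mouse 369, with 2672 genes above 0, had 56.4 in sum and Cct4 at 0. In cell 103 of mouse 1184, with 3314 genes above 0, Cct4 alone had 4024 of the 4045 summed reads. The other 4 low-label cells had sums of 6564 to 12189.5. Cell 103 alone gives the low-label mean of mouse 1184 in the differences above.

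The small heat shock genes Hspb1 and Hspb6 were at 0 in all low-label cells, where 0 of 6 cells allows a share of up to 50%, taking 3 counts as the limit (exact 95% upper bound 45.9%). Hspb6 was above 0 in 14 of 22 labelled cells (63.6%) and had a difference of −3.70 ± 1.16 (limma adjusted p 0.0566). Hspb1 was above 0 in 12 of 22 labelled cells (54.5%), with a difference of −2.36 (limma adjusted p 0.117). Hspb6 and Hspb1, like Dnajc16 and Dnajc17, entered this test through labelled cells only. Of the genes that were not lower, Dnajb14 (an endoplasmic reticulum J protein) differed by 1.01 ± 2.04, Hspbap1 by 0.81 and Dnajb2 by 0.23. The mitochondrial import factors Dnajc19 and Dnajc15 differed by −0.12 (95% interval −3.41 to 3.17) and −0.85 (−4.03 to 2.33). Dnajb1 differed by −4.39 ± 1.61 (limma adjusted p 0.0856) and Hspe1 by −4.53 ± 1.61 (adjusted p 0.0789).

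**Figure D4:**
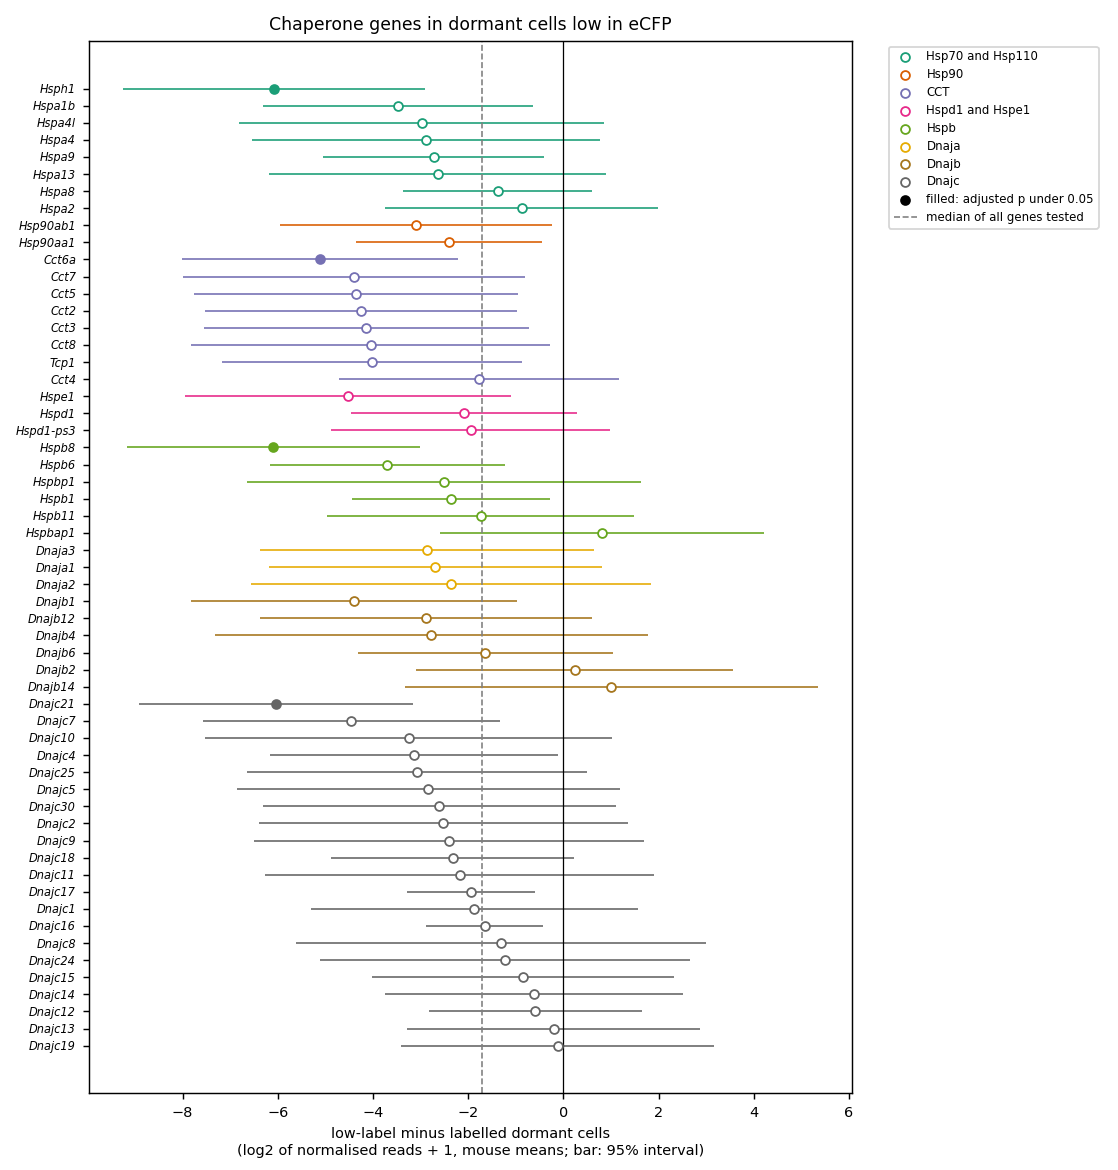
Low-label minus labelled dormant mouse means for the 57 tested genes, in log2(normalised reads + 1), with 95% intervals and colours by family. Filled points are the 4 genes with an adjusted p under 0.05, Hsph1, Hspb8, Dnajc21 and Cct6a, and the dashed line is the median of all genes at −1.71.

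The pan-leukocyte and macrophage genes above moved with this split, and their part in these differences was not tested. With the mouse as a block, which rests on the 2 mice with both kinds and 1 residual degree of freedom, limma called 19 genes of the set, 3 of the 4 among them, beside 40.7% of all genes. The 4 calls ended with an eCFP threshold of 1000, with edgeR, with median-of-ratios rescaling and on leaving out mouse 369, 1184 or 1185. Differences of the 4 genes stayed negative in these settings, but their size changed. With edgeR the difference was −2.25 for Cct6a, against −5.11 in the main fit. For Hspb8 and Dnajc21 it was −8.78 and −7.96 with edgeR. Calls over all genes fell as well, from 972 to 0 with that threshold, 32 (0.299%) with edgeR and 167 with rescaling. Without mouse 369, 1184 or 1185 they numbered 1, 71 and 7. With leukocyte-rich labelled cells left out, 7 of the set were called, with all 4 among them, beside 13.1% of all genes.

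Among the inducible genes, Hspa1b was present in nearly every cell of mouse 369 and in none of mouse 452. Hspa1b, the stress-inducible Hsp70 (chr17:34956436-34959238, minus strand), was above 0 in 5 of 6 dormant cells and in 13 of 13 proliferating cells of mouse 369. Its normalised reads in that mouse were 0, 93.0 and 417 in dormant cells, against 68.4, 235 and 585 in proliferating cells (lowest, median, highest). In mouse 452 it was at 0 in all 3 dormant and all 6 proliferating cells, and 0 of 9 cells allows a share of up to 33.3%. In the other mice 14 of 29 cells were above 0. Mouse 369 and mouse 452 were sampled on day 17 and day 16, with 943496 to 4540658 and 1488864 to 5134852 recovered reads per cell.

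Proliferating cells of mouse 369 formed 2 sets by spike-ins detected. In the 5 cells with 18 to 25 spike-ins above 0, Hspa1b had 94.1 to 404 normalised reads, and in the 8 with 40 to 45 it had 68.4 to 585, so the sets overlapped. Hspb1 was also highest in proliferating cells of mouse 369, where 11 of 13 were above 0 (median 163, highest 573), against 4 of 6 dormant cells (median 16.0, highest 219). The dormant cells of this mouse all had 40 to 45 spike-ins above 0, and proliferating cells in that range had a median Hspb1 of 61.6, against 328 in those with fewer, so Hspb1 moved with the spike-in set and its part was not tested. In mouse 452 2 of 6 proliferating and 0 of 3 dormant cells had Hspb1 above 0. No test was made between mice, since each mouse is 1 animal. Hspa1a was above 0 in 4 of 57 cells and was not tested, and 58.8% of its 50-base windows are also in Hspa1b transcripts, so reads of the pair cannot be parted with certainty.

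**Figure D5:**
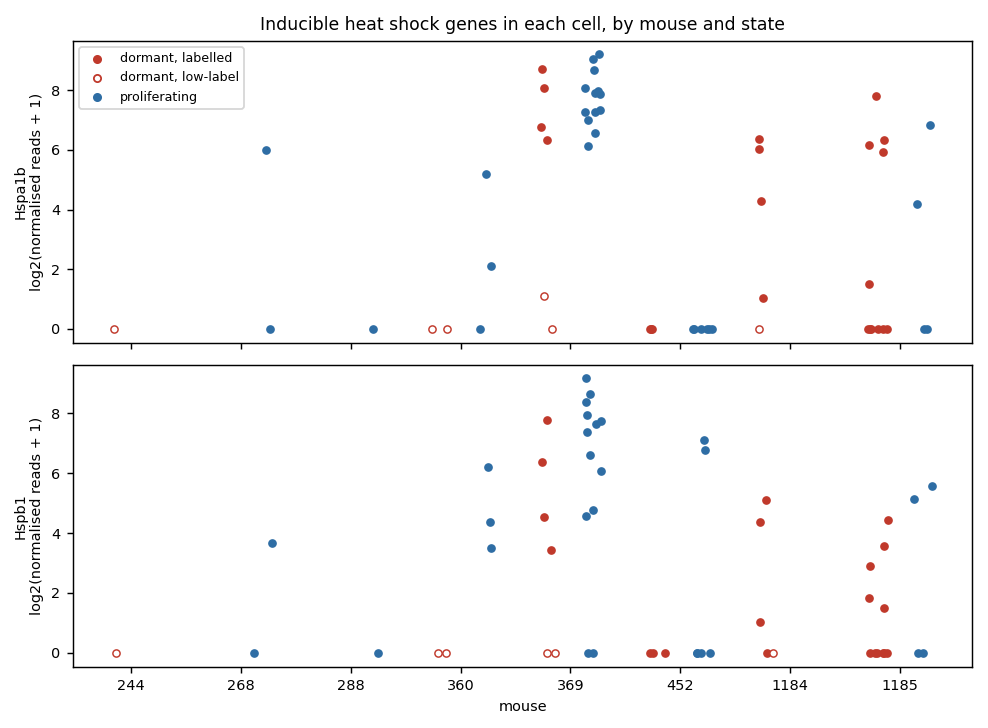
Levels of Hspa1b and Hspb1 in each cell, as log2(normalised reads + 1), by mouse; red points are dormant cells (open, low in label) and blue points proliferating cells. Hspa1b is above 0 in 18 of 19 cells of mouse 369 and in 0 of 9 cells of mouse 452.

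Most pairs of chaperonin subunits varied together across cells, as a description with no test. Pairs drawn from all genes were not set beside them. Over 22 labelled dormant cells the 28 pairs of subunits had Spearman correlations from 0.14 to 0.81 (median 0.43), and over 29 proliferating cells from 0.49 to 0.90 (median 0.74). Within 1 mouse, the median was 0.40 over 11 labelled dormant cells of mouse 1185 (−0.25 to 0.89). It was 0.80 over 13 proliferating cells of mouse 369 (0.37 to 0.96). The mean of the 8 subunits correlated with the number of genes above 0, at 0.59 in labelled dormant and 0.68 in proliferating cells, and cells share library and depth. Its correlation with Mki67, a proliferation marker, was −0.01 in labelled dormant cells and 0.59 in proliferating cells, with −0.33 within labelled dormant cells of mouse 1185 and 0.38 within proliferating cells of mouse 369. With eCFP it was 0.06 in labelled dormant and 0.15 in proliferating cells, but −0.21 within mouse 1185 and 0.44 within mouse 369. Pairs of the inducible genes Hspa1b, Dnajb1, Hsph1 and Hspb1 had a median correlation of 0.09 in labelled dormant and 0.36 in proliferating cells. Within labelled dormant cells of mouse 1185 it was −0.12 (−0.42 to 0.29). Within proliferating cells of mouse 369 it was 0.15 (−0.63 to 0.39).

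Of 40 other genes of chaperone pathways (co-chaperones, prefoldin, exchange factors and Hsf factors), 34 were lower and 6 higher in dormant cells over all mice. In limma 0 passed, and 4 of the 40 were lower at an unadjusted p under 0.05, beside 6.22% of all genes. The smallest p belonged to Bag2, an Hsp70 exchange factor (−3.27 ± 1.28, adjusted p 0.457 in limma), and Nudc, an Hsp90 co-chaperone (−2.54 ± 1.01), and, among higher genes, to Chordc1 (1.91 ± 1.28) and Tbcb (0.99 ± 0.95). Without low-label cells 23 were lower and 17 higher, with a median of −0.14. In low-label against labelled dormant cells all 40 were lower, with a median of −3.07. The median of all genes was also negative in that comparison. In limma 3 of the 40 fell, beside the 9.08% of all genes called. They were Bag2 (−5.74 ± 1.42, adjusted p 0.0312), Grpel2, a mitochondrial exchange factor (−5.32 ± 1.55, adjusted p 0.0447), and Hsf2, a heat shock transcription factor (−2.08 ± 0.61, adjusted p 0.0463). Bag2 had at most 4.30 normalised reads in low-label cells, against a median of 226 in labelled dormant cells. Hsf2 was at 0 in all low-label cells and had a median of 0 in labelled dormant cells too (highest 121). It therefore entered the test through labelled cells only. With median-of-ratios rescaling 38 of the 40 were lower and 0 were called.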

How the data were processed

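Each sample is 1 cell, profiled by full-length RNA-seq with ERCC spike-ins, per the labels' protocols. STAR, RSEM, GRCm38 and mm10 appear in the submitters' processing notes. The deposited values are a signal that the authors normalised with BASiCS, per the series text. In each cell 100% of gene values were whole multiples of a single step within 0.01 reads, which gave back the reads.

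Values were averaged as log2(value + 1) over the cells of each mouse and state, with the mouse as replicate. Zeros count in these averages, so they also carry the share of cells with a gene, and low genes have understated differences. A gene above 0 in 6 or more cells was tested by limma (3.58.1, trend and robust), Benjamini-Hochberg adjusted over all genes at 0.05. edgeR (4.0.16) and DESeq2 (1.42.0) on reads summed per mouse were alternatives, as were other pseudocounts, filters, scalings, cells and mice. Pairs come from the labels (same mouse), and paired means deviated together with correlations of 0.00281 (mouse 360), 0.341 (369), 0.167 (452) and −0.0065 (1185). No cell pair correlated above 0.878.

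The genes, lists, eCFP groups and tests were chosen with earlier results of these data known. Named genes are up to 4 per family above 0 in the most cells, the 4 largest differences in each direction, every gene past the test, the inducible genes and all CCT subunits. Of 12885 gene IDs, 12852 had a symbol. Intervals and limits on shares of cells cover counting error only. The fits were also run on simulated data, made by redrawing cells from all mice with large changes added. Differences between mice were not kept in that redrawing, so these runs do not test calls made over mice. Positions are from GENCODE on GRCm38 and promoters from RefSeq. Tests ran in R 4.3.3, tables in pandas 2.3.3 and scipy 1.17.1 under Python 3.11.15, and plots in matplotlib 3.10.9.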

Additional observations from a re-analysis of the deposited data

Results flagged for a closer look

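In 14 cases 1 mouse lay far from the others of its group, out of 160 groups of 4 to 6 mouse means of the named genes that were examined, where chance gives about 1 in 20, a rate that need not hold where the other mice are tied at 0. All values are means of log2(normalised reads + 1) over the cells of a mouse. In low-label dormant cells, Dnaja1 was at 1.87 and Dnajc8 at 0 in mouse 1184, where a single cell gives the mean, against 9.79 to 10.74 and 8.22 to 9.85 in the other mice. In the same cells Hspa1a was at 3.66 in mouse 360, and Hspa1b at 0.55 and Hspb8 at 1.58 in mouse 369, with the other mice at 0. In labelled dormant cells of mouse 452, Dnajc8 was at 5.61 and Hspbp1 at 4.69, against 8.88 to 8.99 and 7.44 to 7.55 elsewhere. Over all dormant cells Hspa1a was at 3.66 in mouse 360, with the others at most 1.35.

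In proliferating cells, mouse 268 (2 cells) was low for Cct7 at 5.58, Hspa9 at 7.24 and Dnajc19 at 4.05, against at least 10.69, 11.99 and 6.95 in the other mice. Mouse 360 was high for Dnaja4 at 4.29 and low for Dnajc8 at 8.26. Hspa1a was at 0.0872 in mouse 369 and 0 in the others.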

How the results depend on the processing

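Of the settings tried, 2 were chosen after seeing the data (median-of-ratios rescaling and leaving out leukocyte-rich labelled cells, both for the low-label comparison). Between the states 0 chaperone genes passed under every setting run, over all mice and in the 4 mice with both states, with and without the replicate block. The median difference over all mice stayed between −1.26 and −0.15 except without leukocyte-rich cells (1.03), with the cause not tested. Leaving out each mouse gave −1.26 to −0.63. For the low-label comparison, called genes numbered 0 with an eCFP threshold of 1000, 0 with edgeR, 19 with the mouse as a replicate block, 0 with median-of-ratios rescaling, 7 without leukocyte-rich labelled cells and 4 with a pseudocount of 10. Leaving out a mouse gave 0 to 12 (0 without 369, 1184 or 1185, 3 without 244, 12 without 360, 10 without 452), beside 4.16% of all genes called without 244, 15.2% without 360 and 18.6% without 452. Over all genes 1, 71 and 7 were called without 369, 1184 and 1185, against 972 in the main fit. With the eCFP threshold of 1000 none of all genes was called. In the low-label comparison, no named gene that passed in any setting changed sign. Between the states over all mice some of these genes did, such as Hspb8 (−3.72 to 2.16) and Hsph1 (−3.29 to 2.19). Depth limits low genes: with 1 to 2 cells per mouse in several groups, a mean rests on few reads.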
